A study of Mus musculus with 21 samples.

Results

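The 10 genes described here encode MHC class II molecules and the proteins that assemble, load and switch them on: H2-Aa, H2-Ab1, H2-Eb1, Cd74, H2-DMa, H2-DMb1, H2-DMb2, H2-Oa, H2-Ob and Ciita. They were taken by symbol, and all 10 were found among the 24421 gene symbols of the deposited expression tables. The study asked how leukemic oncogenes act on B cell precursors, and RNA was sequenced from 6 libraries, 2 for each of 3 conditions. All cells were primary B cell precursors cultured ex vivo from bone marrow of 53BP1-/- C57BL/6 mice, so the controls lack the DNA repair factor 53BP1 as well. They were kept in interleukin-7 at 10 ng/ml, a growth factor for early B cells, and received the retroviral vector MIGR1 on days 2 and 3 of culture. The vector was empty (EV), or carried human BCR-ABL1 in its p210 form, the fusion kinase of Philadelphia-positive leukemia, or mouse C-MYC, a transcription factor that drives growth. Cells were collected 7 to 9 days after transduction, dead cells were depleted, and poly(A) RNA was prepared in duplicate experiments. The precursors were enriched by culture in interleukin-7, and the methods read here name no further sort for the RNA libraries.

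MHC class II molecules are pairs of an alpha and a beta chain that display peptides from endosomes to CD4 T cells. The invariant chain, Cd74, guards the empty groove on the way to the endosome, the DM heterodimer then exchanges its last fragment for peptide, and DO, found mainly in B cells, inhibits DM. The transactivator Ciita binds no DNA itself and acts through proteins held on the X and Y boxes of class II promoters. In C57BL/6 mice the alpha chain of the I-E molecule is not made, so the product of H2-Eb1 lacks its usual partner.

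Of the 10 genes, 8 form a cluster on chromosome 17 of GRCm38 that runs from H2-Oa at its start (chr17:34092340-34095234) to H2-Eb1 at its end (chr17:34305867-34316674). Cd74 lies elsewhere, Ciita is at chr16:10480059-10528418, and all 10 are annotated as protein coding. Promoter sequences were found for 7 of the 10 genes in RefSeq (GRCm38.p6), and none was found for H2-Ab1, Cd74 and Ciita. Each window covers 250 bases before and 50 bases after a gene start, and H2-DMa has 2 windows, which makes 8. These windows were searched on both strands for the Y box (GATTGG), the core of the X1 box (GNAAC), the core of the X2 box (TGACG), and a pair in which X1 is followed by Y on the same strand with 15 to 40 bases between. The Y box was present on the gene's strand in windows of all 7 genes, and in 16.1% of the 32851 promoter windows of the genome when either strand is counted. The pair was present in 5 of the 7 genes, and in 1.45% of all windows. The X2 core was found in H2-Aa, where tgacgtca, in the stretch given below, reads as the core on either strand. It was found in 20.8% of all windows, while the X1 core on its own was found in 84.8%.

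The stretches that hold the pair are given here because they are the sequence these genes have in common, with the X1 core and the Y box in capitals. They are read 5′ to 3′ on each gene's strand, and the motifs share no base with each other. H2-DMb2 is shown for comparison with its near copy H2-DMb1, and in it the capitals mark the Y box alone.
H2-Aa: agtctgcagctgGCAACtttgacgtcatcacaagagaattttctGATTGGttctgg
H2-Eb1: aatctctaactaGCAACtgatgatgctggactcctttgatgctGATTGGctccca
H2-DMb1: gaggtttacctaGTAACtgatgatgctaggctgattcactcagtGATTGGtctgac
H2-DMb2: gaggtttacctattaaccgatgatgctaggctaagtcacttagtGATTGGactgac
H2-Oa: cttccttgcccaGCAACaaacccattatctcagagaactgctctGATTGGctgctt
H2-Ob: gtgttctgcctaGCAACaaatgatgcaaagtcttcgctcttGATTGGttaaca

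The X1 core began 76 to 94 bases before the RefSeq gene start in the 5 genes with the pair, the Y box 44 to 62 bases before it, and the gap between them was 24 to 27 bases. The gene coordinates given for the cluster come from GENCODE, whose starts can differ. In GENCODE, H2-DMb1 and H2-DMb2 start at chr17:34153072 and chr17:34143307, before their stretches. The stretches are at chr17:34287861-34287916 (minus strand) for H2-Aa, chr17:34305764-34305818 (plus strand) for H2-Eb1, chr17:34153085-34153140 (plus strand) for H2-DMb1, chr17:34145114-34145169 (plus strand) for H2-DMb2, chr17:34092291-34092346 (plus strand) for H2-Oa and chr17:34238806-34238858 (plus strand) for H2-Ob. Those of H2-DMb1 and H2-DMb2 differed at 6 of 56 bases. Counted from 1 at the first printed base, with the base of H2-DMb1 first, the 6 are G13T, T18C, G33A, T35G, C41T and T51A, and 1 of them, G13T, falls in the X1 core.

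The libraries held 20687092 to 24095955 counts, and the 10 most abundant genes took 4.07% to 5.28% of them. All 10 class II genes were among the 12786 genes that passed the filter on low counts, and levels are given as CPM, the count relative to library size after TMM scaling in edgeR, unless FPKM (reads per transcript length and library size) is named. Myc, which checks the C-MYC label, had 37920 and 27450 counts in the C-MYC libraries against 3277 to 8381 in the other 4. Trp53bp1, the gene of 53BP1, had 342 to 723 counts in the libraries, so its counts do not check the 53BP1-/- label. Markers of B lineage precursors were abundant in every library, with a summed level over 10 genes of 5432 to 6155 CPM under EV, 5527 to 6199 under BCR-ABL1 and 3131 to 3767 under C-MYC. Of these 10, edgeR called 3 lower in BCR-ABL1 than in EV and 9 lower in C-MYC, where 12% and 24.5% of all tested genes were. Rag1, 1 of the 10, was low under C-MYC, at a mean of 7.10 CPM against 65.0 under EV. For mature B cells, the 4 markers in the table summed to 37.8 to 44.1, 17.2 to 18.6 and 26.0 to 27.8 CPM. Cd22 alone held 32.8 and 37.5 CPM of this sum under EV, 12.4 and 14.7 under BCR-ABL1, and 26.5 and 24.6 under C-MYC. Ms4a1, another of the 4, was in a different order, with means of 5.17, 3.66 and 0.932 CPM.

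Markers of other cell types were also present, and the mean of each summed level was highest in EV. The 10 macrophage and monocyte markers summed to 911 to 1278 CPM under EV, 144 to 178 under BCR-ABL1 and 252 to 434 under C-MYC. The 7 neutrophil markers summed to 328 to 1029, 26.4 to 40.4 and 27.9 to 37.4 CPM, the 7 T and NK cell markers to 143 to 194, 38.8 to 44.8 and 52.1 to 84.2, and the 5 stromal markers to 101 to 153, 4.88 to 5.94 and 1.70 to 2.42. The 9 dendritic cell markers summed to 66.3 to 111 CPM under EV, 44.0 to 73.1 under BCR-ABL1 and 18.5 to 31.9 under C-MYC. Single genes carried much of some sums. Ccr7 alone held 87.1 and 45.4 CPM of the dendritic sum under EV, 61.7 and 37.6 under BCR-ABL1, and 29.1 and 15.2 under C-MYC. Thy1 alone held 94.8 and 67.6 CPM of the T and NK sum under EV, 38.3 and 30.9 under BCR-ABL1, and 81.1 and 47.2 under C-MYC. Of the dendritic cell markers, Cd209a had 5 and 15 counts in EV and 0 in the other 4 libraries, and Clec9a had 2 and 7 in EV, 0 in both BCR-ABL1 libraries and 1 in each C-MYC library. Flt3, another of these markers, went the other way in BCR-ABL1, with 68 and 42 counts in EV against 202 and 114 (log2 fold change 1.54, SE 0.45, edgeR adjusted p = 0.0549), a difference that DESeq2 called. Of the stromal markers, Cxcl12 and Pdgfrb were at 0 in both C-MYC libraries, and no macrophage, neutrophil or T and NK marker was at 0 in any library. Against EV, edgeR called lower 10 of 10 macrophage, 7 of 7 neutrophil, 7 of 7 T and NK, 3 of 4 tested stromal and 2 of 5 tested dendritic cell markers in BCR-ABL1, and 7, 7, 6, 4 and 3 of them in C-MYC. The shares over all tested genes were 12% in BCR-ABL1 and 24.5% in C-MYC. Macrophages, dendritic cells and mature B cells express class II genes too. The part of these markers in the results was not tested, and in bulk RNA fewer cells of a type and less RNA per cell cannot be told apart.

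**Figure D1:**
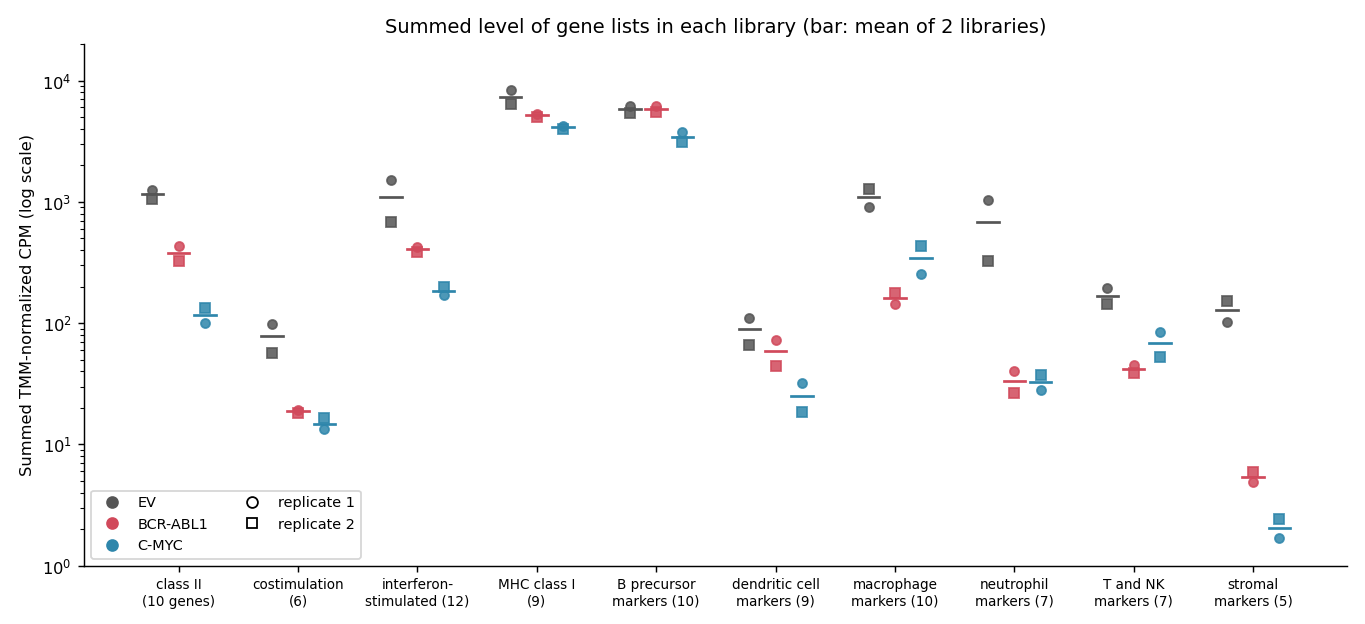
Summed TMM-normalized CPM (y axis, log scale) of the class II genes, related gene lists and cell type markers (x axis, number of genes in brackets) in each library; points are libraries, coloured by condition and shaped by replicate, and bars are means of 2. The class II sum is 1056 to 1251 CPM under EV, 327 to 435 under BCR-ABL1 and 99.9 to 133 under C-MYC, and the macrophage, neutrophil, T and NK and stromal marker sums are highest in EV.

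In BCR-ABL1 cells, class II transcripts were lower than in EV, most of all those of H2-Aa, H2-Eb1 and Ciita. By edgeR's quasi-likelihood test, with p-values adjusted by Benjamini-Hochberg across all tested genes, 8 of 10 fell, where 12% of all tested genes were called lower. None was called higher, where 5.08% of all genes were, and none was higher at an unadjusted p under 0.05 or by DESeq2. The other 2, H2-DMb2 and H2-Oa, did not pass the test. The median log2 fold change of the 10 genes was -2.24, beside 0.00 over all tested genes. In C-MYC cells all 10 fell, where 24.5% of all genes were called lower and 18.6% higher, with a median of -3.56 beside -0.08. Both comparisons share the EV libraries. The 2 libraries of a condition came from duplicate experiments, and as the sources used here do not say that these were separate animals, p-values measure the spread between these libraries, which may be technical. Between the oncogenes, 5 were higher in BCR-ABL1 (Cd74, H2-DMa, H2-DMb2, H2-Oa and H2-Ob), where 11.9% of all genes were, and 2 were lower (H2-Aa and H2-Eb1), where 11.5% were.

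**Figure D2:**
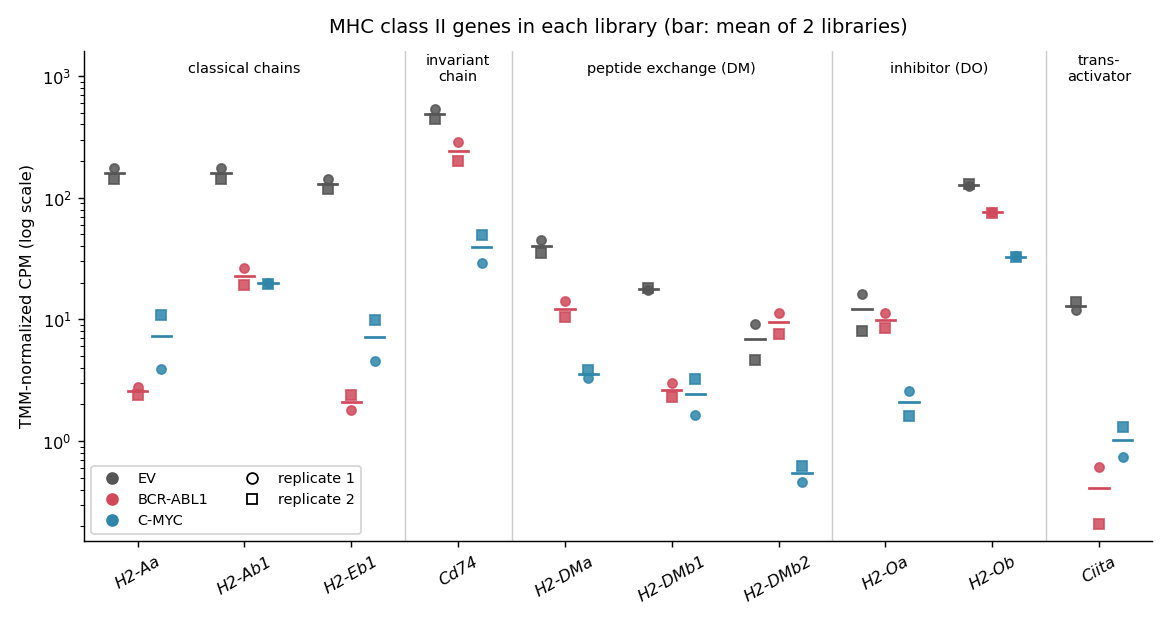
TMM-normalized CPM (y axis, log scale) of the 10 class II genes (x axis, grouped by role) in each library; points are libraries, coloured by condition and shaped by replicate, and bars are means of 2. Both oncogene groups lie below EV for 8 genes, while for H2-DMb2 and H2-Oa the BCR-ABL1 libraries overlap with EV and the C-MYC libraries lie below both. The share of all genes that separate in this way was not counted. For 2 against 2 libraries, full separation has an exact two-sided permutation p of 0.333.

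The classical chains form the peptide-binding molecule itself. H2-Aa, the alpha chain of I-A, had 3784 and 3386 counts under EV, 59 and 58 under BCR-ABL1, and 85 and 240 under C-MYC. The 3 conditions did not overlap, and BCR-ABL1 was lowest. It fell 61.2-fold in BCR-ABL1 (log2 fold change -5.93, SE 0.45, edgeR adjusted p = 0.000434) and 21.6-fold in C-MYC (-4.44, SE 0.40, adjusted p = 0.00035). H2-Ab1, the beta chain that pairs with it, had 3758 and 3434 counts under EV, 563 and 461 under BCR-ABL1, and 436 and 433 under C-MYC. Its CPM in the oncogene groups overlapped. It fell 6.97-fold in BCR-ABL1 (log2 fold change -2.80, SE 0.19, edgeR adjusted p = 0.000367) and 8.08-fold in C-MYC (-3.01, SE 0.19, adjusted p = 0.000175). H2-Eb1, the beta chain of I-E, had 3053 and 2842 counts under EV, 38 and 58 under BCR-ABL1, and 100 and 219 under C-MYC. As for H2-Aa, the conditions did not overlap and BCR-ABL1 was lowest. It fell 61.6-fold in BCR-ABL1 (log2 fold change -5.95, SE 0.37, edgeR adjusted p = 0.000354) and 18.1-fold in C-MYC (-4.18, SE 0.33, adjusted p = 0.000247).

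Between the oncogene groups, H2-Aa was 2.83-fold lower in BCR-ABL1 (log2 difference -1.50, SE 0.44, edgeR adjusted p = 0.0424) and H2-Eb1 3.41-fold lower (-1.77, SE 0.36, adjusted p = 0.0128). These calls depended on single libraries and on the test. For H2-Aa the adjusted p became 0.154 without BCR-ABL1 replicate 1, 0.168 without BCR-ABL1 replicate 2 and 0.192 without C-MYC replicate 2, with log2 differences of -1.61, -1.40 and -0.59. For H2-Eb1 the edgeR adjusted p became 0.0961 without BCR-ABL1 replicate 1 and 0.0522 without C-MYC replicate 2, with differences of -1.58 and -1.12. By limma on log2 FPKM the adjusted p for H2-Aa was 0.0902 to 0.236, and for H2-Eb1 0.0307 to 0.117. C-MYC replicate 2, the library with the higher H2-Aa and H2-Eb1, also had the higher macrophage marker sum of that pair (434 against 252 CPM), and the part of this difference was not tested. For H2-Ab1 the log2 difference between the oncogenes was 0.21, with a 95% interval of -0.21 to 0.64 (edgeR adjusted p = 0.442).

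Cd74, on chromosome 18, encodes the invariant chain and had the highest count of the 10 genes in 5 of 6 libraries, with H2-Ob above it in C-MYC replicate 1. It had 11364 and 10602 counts under EV, 6044 and 4790 under BCR-ABL1, and 638 and 1110 under C-MYC. The conditions formed 3 separate steps, with C-MYC lowest. In C-MYC it fell 12.3-fold (log2 fold change -3.62, SE 0.28, edgeR adjusted p = 0.000247). In BCR-ABL1 it fell 2.01-fold (-1.01, SE 0.26, edgeR adjusted p = 0.0343), a call that was lost without EV replicate 1 (adjusted p = 0.0612), without BCR-ABL1 replicate 1 (0.054) and without BCR-ABL1 replicate 2 (0.216), and by limma on log2 FPKM (adjusted p = 0.0677 to 0.154). BCR-ABL1 exceeded C-MYC 6.13-fold (log2 difference 2.62, SE 0.27, edgeR adjusted p = 0.0013), in the direction opposite to H2-Aa and H2-Eb1. Macrophage markers differed in the direction of H2-Aa and H2-Eb1, and 7 of 10 were called lower in BCR-ABL1 than in C-MYC, where 11.5% of all tested genes were. The part of these markers in the differences of the 3 genes was not tested.

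**Figure D3:**
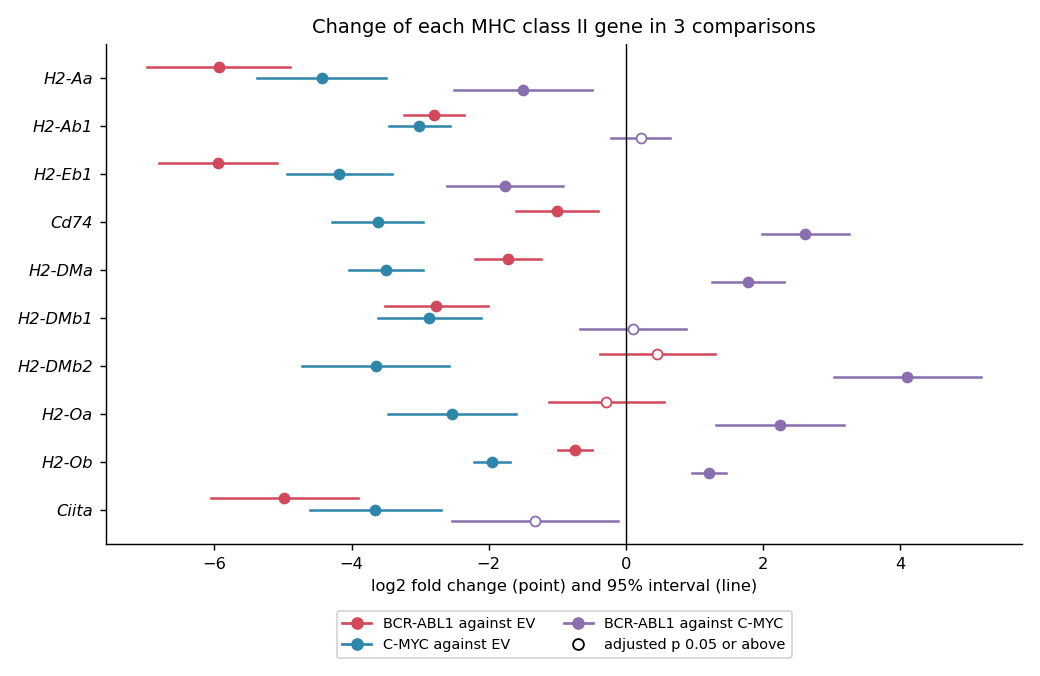
Log2 fold change (x axis, points) with 95% interval (lines) of each class II gene (y axis) from edgeR, coloured by comparison; open points did not reach an adjusted p below 0.05. Both oncogenes sit left of 0 against EV for 9 genes, with H2-DMb2 in BCR-ABL1 to the right, and the comparison of the oncogenes runs from -1.77 for H2-Eb1 to 4.10 for H2-DMb2.

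The DM genes encode the peptide exchanger, with 1 alpha and 2 alternative beta chains. H2-DMa, the alpha chain, had 964 and 846 counts under EV, 297 and 250 under BCR-ABL1, and 72 and 85 under C-MYC. As for Cd74, the 3 conditions were separate and C-MYC was lowest. It fell 3.29-fold in BCR-ABL1 (log2 fold change -1.72, SE 0.21, edgeR adjusted p = 0.00196) and 11.3-fold in C-MYC (-3.49, SE 0.23, adjusted p = 0.000175). Its level in BCR-ABL1 was 3.42-fold that in C-MYC (log2 difference 1.78, SE 0.23, edgeR adjusted p = 0.00258). H2-DMb1 had 375 and 436 counts under EV, 63 and 55 under BCR-ABL1, and 36 and 72 under C-MYC, so that the oncogene groups overlapped and both lay below EV. It fell 6.79-fold in BCR-ABL1 (log2 fold change -2.76, SE 0.32, edgeR adjusted p = 0.00171) and 7.29-fold in C-MYC (-2.87, SE 0.32, adjusted p = 0.000601). The oncogenes differed by 0.10 on the log2 scale, with a 95% interval of -0.68 to 0.88 (edgeR adjusted p = 0.853).

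H2-DMb2, the other beta chain, had 197 and 110 counts under EV, 238 and 184 under BCR-ABL1, and 10 and 14 under C-MYC. BCR-ABL1 overlapped with EV, and C-MYC lay far below both. Its log2 fold change in BCR-ABL1 was 0.46, with a 95% interval of -0.38 to 1.29 (edgeR adjusted p = 0.437). In C-MYC it fell 12.5-fold (-3.65, SE 0.46, edgeR adjusted p = 0.000897), and its level in BCR-ABL1 was 17.2-fold that in C-MYC (4.10, SE 0.46, adjusted p = 0.00157). This was the largest difference between the oncogenes among the 10 genes. The longest protein-coding transcripts of H2-DMb1 and H2-DMb2, of 1404 and 1483 bases, were identical at 94.6% of 1219 aligned bases, and 25.2% of the 50-base windows of H2-DMb2 occur unchanged in H2-DMb1. Reads that fit both genes could be placed on either, so the split between them is uncertain. Summed over both genes, the level fell in BCR-ABL1 (log2 fold change -1.04, SE 0.28, edgeR adjusted p = 0.0433) and in C-MYC (-3.05, SE 0.32, adjusted p = 0.000476), and differed between the oncogenes by 2.01 (SE 0.31, adjusted p = 0.00489).

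DO, the inhibitor of DM, is made of H2-Oa and H2-Ob. H2-Oa, its alpha chain, had 347 and 192 counts under EV, 238 and 206 under BCR-ABL1, and 56 and 36 under C-MYC. BCR-ABL1 lay within the range of EV in CPM, and C-MYC lay below both. The log2 fold change in BCR-ABL1 was -0.29, with a 95% interval of -1.12 to 0.55 (edgeR adjusted p = 0.641), and without EV replicate 1 it was 0.31. In C-MYC it fell 5.77-fold (log2 fold change -2.53, SE 0.40, edgeR adjusted p = 0.00219). BCR-ABL1 exceeded C-MYC 4.72-fold (2.24, SE 0.40, edgeR adjusted p = 0.0078), with an adjusted p of 0.0567 without BCR-ABL1 replicate 1 and 0.0692 without C-MYC replicate 2. H2-Ob, the beta chain, had 2673 and 3086 counts under EV, 1619 and 1810 under BCR-ABL1, and 724 and 719 under C-MYC. Its replicates were close and the conditions were separate steps. It fell 1.67-fold in BCR-ABL1 (log2 fold change -0.74, SE 0.11, edgeR adjusted p = 0.00388) and 3.87-fold in C-MYC (-1.95, SE 0.11, adjusted p = 0.000156), and the oncogenes differed 2.32-fold (1.21, SE 0.11, adjusted p = 0.00079). With 1 BCR-ABL1 library left out the call against EV was lost, at an adjusted p of 0.0525 without replicate 1 and 0.0596 without replicate 2, although the log2 fold change stayed at -0.75 and -0.73.

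Ciita, the transactivator, had 254 and 332 counts under EV, 13 and 5 under BCR-ABL1, and 16 and 29 under C-MYC. All 4 oncogene libraries lay far below EV, and the oncogene groups did not overlap in CPM. It fell 31.6-fold in BCR-ABL1 (log2 fold change -4.98, SE 0.46, edgeR adjusted p = 0.000883) and 12.6-fold in C-MYC (-3.65, SE 0.41, adjusted p = 6e-04). The oncogenes differed by -1.33 on the log2 scale, with a 95% interval of -2.54 to -0.12, which did not pass after adjustment (edgeR adjusted p = 0.105), and the counts are low. Ciita overlaps Dexi on the opposite strand, H2-DMa overlaps Brd2 and other genes, and H2-Eb1 and H2-Oa each overlap an antisense gene, also on the opposite strand. On the same strand, H2-DMa overlaps CR974462.3 and Cd74 overlaps the microRNA gene Mir5107, which no strand setting would separate. The strand setting of the counting is not given in the sources used here either, so reads of all these overlaps cannot be assigned with certainty.

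Compared per length by the deposited FPKM values, the order of the 10 genes changed between conditions. In EV, Cd74 was highest at 383 ± 31.0 FPKM (SD, n = 2), followed by H2-Ab1 at 137 ± 17.5 and H2-Aa at 132 ± 20.8, which overlapped. H2-Ob at 93.1 ± 2.45 and H2-Eb1 at 93.0 ± 10.95 came next and also overlapped, and Ciita was last at 2.08 ± 0.244. In BCR-ABL1, Cd74 stayed first at 192 ± 46.9 FPKM and H2-Ob was second at 53.2 ± 0.684. H2-Aa, at 2.06 ± 0.192, and H2-Eb1, at 1.41 ± 0.327, then ranked 8 and 9 of 10, below H2-DMb2 (8.58 ± 2.16), H2-Oa (8.24 ± 0.680) and H2-DMb1 (2.22 ± 0.522). H2-Aa and H2-DMb1 did not differ there beyond their spread. In C-MYC, Cd74 at 30.4 ± 12.8 FPKM and H2-Ob at 22.2 ± 0.215 overlapped at the top, ahead of H2-Ab1 at 15.2 ± 0.256, and H2-DMb2 was second to last at 0.562 ± 0.256. When counts per kilobase of annotated exon replaced FPKM, 6 of 10 genes kept their rank under EV, 6 under BCR-ABL1 and 4 under C-MYC.

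Ratios within a library show how unequal the changes were, and they were not tested, since 2 libraries against 2 cannot give an exact two-sided permutation p below 0.333. The FPKM ratio of H2-Aa to H2-Ab1, the partner chains of I-A, was 0.982 and 0.940 under EV, 0.107 and 0.127 under BCR-ABL1, and 0.197 and 0.549 under C-MYC. The conditions did not overlap, and BCR-ABL1 was lowest. For Cd74 against H2-Aa the ratio was 2.77 and 3.09 under EV, 102 and 82.5 under BCR-ABL1, and 7.19 and 4.66 under C-MYC. H2-DMa to H2-Oa gave 3.66 and 4.47 under EV, 1.51 and 1.28 under BCR-ABL1, and 1.63 and 2.92 under C-MYC. This ratio of exchanger to inhibitor chain was lower in all 4 oncogene libraries than in EV. The size of these ratios depended on the length scaling. By counts per kilobase of annotated exon, an alternative chosen after seeing the data, H2-Aa to H2-Ab1 averaged 0.674, 0.0780 and 0.253 for EV, BCR-ABL1 and C-MYC, Cd74 to H2-Aa 6.94, 209 and 13.7, and H2-DMa to H2-Oa 1.47, 0.502 and 0.744, with the last below 1 in both oncogene groups. A further pair of ratios was chosen after the values were seen. H2-Ob to H2-DMb1 was 7.20 and 7.27 under EV, 20.7 and 28.5 under BCR-ABL1 and 21.7 and 9.79 under C-MYC, and H2-DMb2 to H2-DMb1 was 0.795 and 0.387, 3.90 and 3.81, and 0.375 and 0.325.

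**Figure D4:**
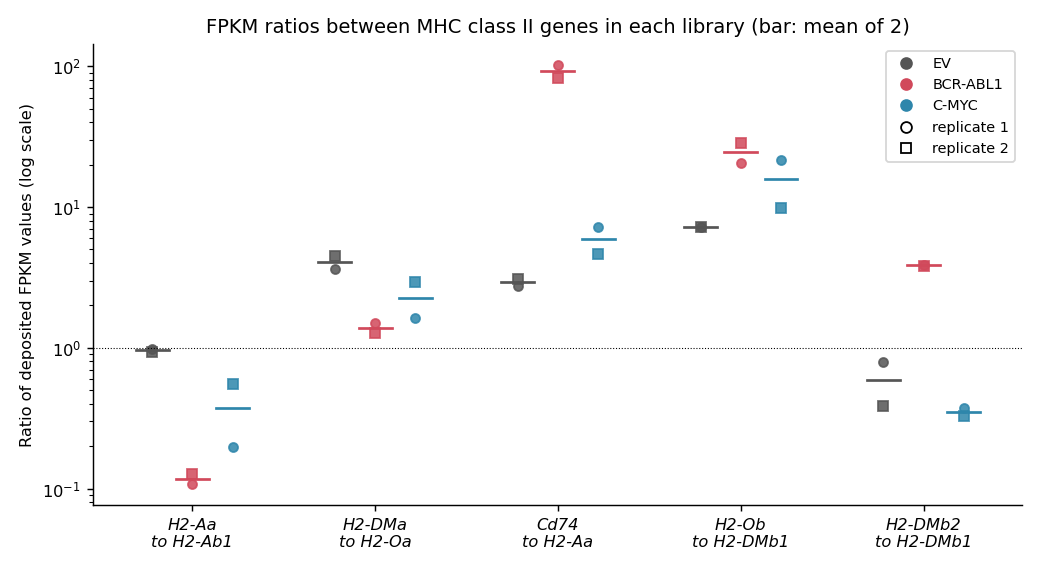
Ratios of deposited FPKM values (y axis, log scale) between pairs of class II genes (x axis) in each library; points are libraries, coloured by condition and shaped by replicate, bars are means of 2, and the dotted line marks equal values. The ratio of Cd74 to H2-Aa reaches 82.5 to 102 in BCR-ABL1 against 2.77 to 3.09 in EV, and H2-DMb2 exceeds H2-DMb1 in the BCR-ABL1 libraries alone of the 6.

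Other genes of the same region of chromosome 17 were read as neighbours, among them genes of class I loading and, further out and not plotted along the locus, Notch4. Of 8 tested neighbours, 3 were called lower in BCR-ABL1 (Psmb9, Tap1 and Tap2) and 4 in C-MYC (the same 3 and Btnl2). Over all tested genes, 12% and 24.5% were called lower in these comparisons. No neighbour was called higher by edgeR, by DESeq2 or at an unadjusted p under 0.05 in either comparison against EV. The median log2 fold changes of the 8 were -0.42 and -0.53. Tap1, a subunit of the peptide transporter for class I loading, changed by -1.13 in BCR-ABL1 (SE 0.28, edgeR adjusted p = 0.0314) and by -1.78 in C-MYC (SE 0.29, adjusted p = 0.00237). H2-Eb2, a beta chain gene next to H2-Eb1, had 165 and 114 counts under EV, 144 and 170 under BCR-ABL1, and 133 and 187 under C-MYC, and all 3 conditions overlapped. Its log2 fold changes were 0.16 and 0.22 (edgeR adjusted p = 0.762 and 0.572). The I-E alpha gene, annotated as the polymorphic pseudogene H2-Ea-ps, had 1 count in each EV library and 0 in the other 4, and was not tested.

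**Figure D5:**
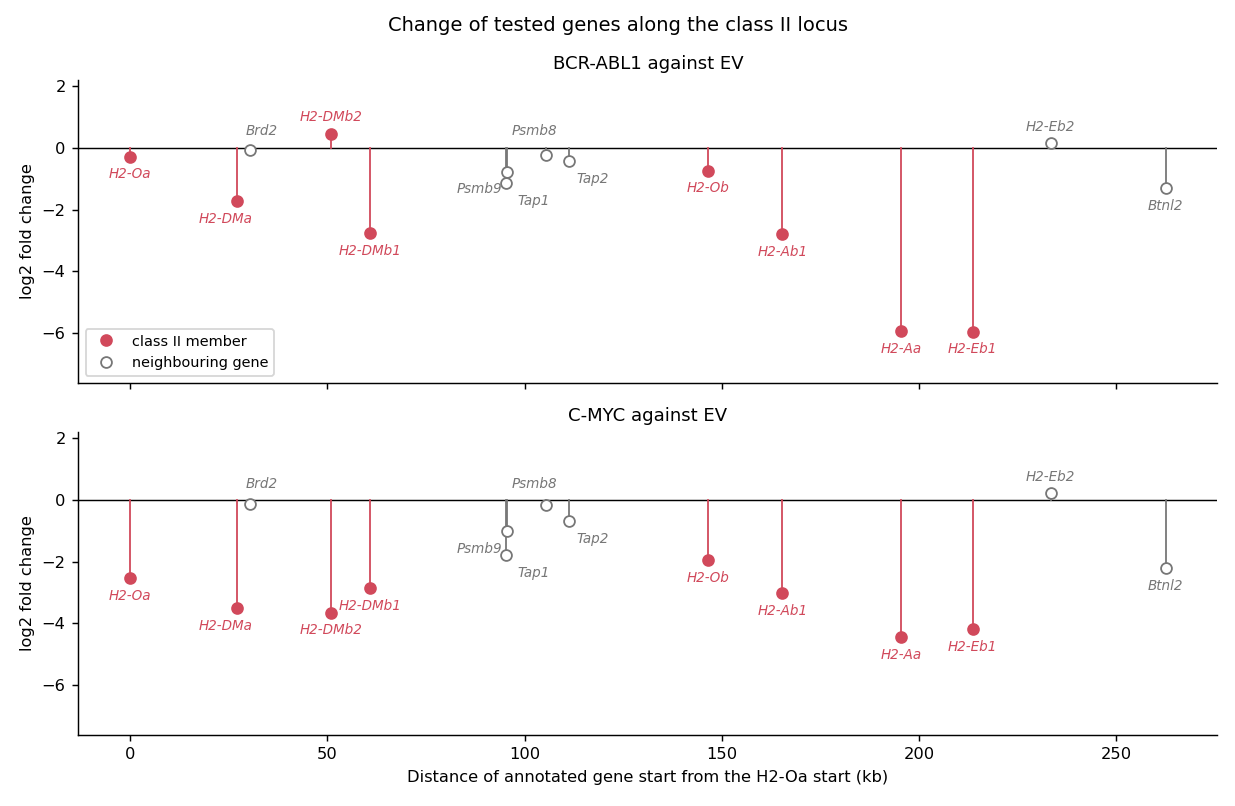
Log2 fold change against EV (y axis) of the tested genes along the class II locus, placed by the distance of their annotated start from that of H2-Oa (x axis, kb), for BCR-ABL1 (top) and C-MYC (bottom); filled points are class II genes and open points their neighbours. In BCR-ABL1 the class II genes run from 0.46 for H2-DMb2 to -5.95 for H2-Eb1, while H2-Eb2, the next gene after H2-Eb1 in the plot, is at 0.16.

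Ciita acts through a protein complex on the X and Y boxes, the enhanceosome. Of the 10 genes listed for it and its coactivators, none was called in BCR-ABL1 by edgeR or DESeq2, and 1 was lower at an unadjusted p under 0.05. Over all tested genes, edgeR called 12% lower and 5.08% higher there. The median log2 fold change of the 10 was -0.18, with a range of -0.36 to 0.08. In C-MYC 6 of 10 fell, where 24.5% of all tested genes did, and the median of the 10 was -0.56. The 6 were Rfx5 and Rfxank, subunits of the X box factor RFX, Nfya, a subunit of the Y box factor NF-Y, and the coactivators Crebbp, Ep300 and Kat2b. Rfx5 changed by -0.62 (SE 0.15, edgeR adjusted p = 0.0124) and Rfxank by -0.95 (SE 0.20, adjusted p = 0.00636). Rfxap, the remaining RFX subunit, stood at 0.10 (edgeR adjusted p = 0.634).

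Of the 12 regulators of Ciita listed, 5 fell in BCR-ABL1, among them Irf8, Irf1, Irf2 and Prdm1, and 9 fell in C-MYC. Over all tested genes, 12% and 24.5% fell. The median log2 fold changes of the list were -0.55 and -0.85. None of the 12 was called higher in either by edgeR, by DESeq2 or at an unadjusted p under 0.05. Irf1, which acts on the interferon-inducible promoter of Ciita, had a mean of 262 ± 0.745 CPM in EV (SD, n = 2), 86.5 ± 5.73 under BCR-ABL1 and 60.7 ± 2.85 under C-MYC, and fell by 1.60 (SE 0.11, edgeR adjusted p = 0.000367) and 2.11 (SE 0.11, adjusted p = 0.000156) on the log2 scale. Prdm1, a repressor of Ciita, fell as well in BCR-ABL1, by 1.72 (SE 0.32, edgeR adjusted p = 0.0108). Pax5 and Ebf1, B lineage factors, were not called in BCR-ABL1 (log2 fold changes -0.31 and 0.10) and fell in C-MYC by 0.82 and 0.77.

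Proteases and other enzymes that trim the invariant chain and prepare peptides did not move as 1 group. Of 8, 3 fell in BCR-ABL1 (Ctss, Ctsl and Lgmn), and in C-MYC 2 fell (Ctss and Ifi30) and 1 rose (Ctsl). Over all tested genes, 12% fell in BCR-ABL1, and 24.5% fell and 18.6% rose in C-MYC. The counts of enzymes in C-MYC are near these shares. Ctss, which makes the last cuts in the invariant chain, had 266 ± 43.7 CPM in EV (SD, n = 2), 100 ± 0.894 under BCR-ABL1 and 107 ± 28.2 under C-MYC, with log2 fold changes of -1.40 (SE 0.19, edgeR adjusted p = 0.00311) and -1.31 (SE 0.19, adjusted p = 0.00154). Ctsl, an endosomal protease, changed by -1.21 (SE 0.20, edgeR adjusted p = 0.00629) in BCR-ABL1 and by 0.69 (SE 0.19, adjusted p = 0.0226) in C-MYC. Of 7 genes of class II turnover and trafficking, 3 fell in BCR-ABL1 (March1, Cd63 and Cd44), and 3 fell (March1, Cd82 and Cd37) and 1 rose (Mif) in C-MYC. The shares over all tested genes are those just given. March1, the ubiquitin ligase that removes class II from the surface, fell by 3.00 (SE 0.33, edgeR adjusted p = 0.0014) and 3.10 (SE 0.33, adjusted p = 0.000506). All 6 costimulation genes fell in both comparisons, with medians of -2.21 and -2.88. Cd40, the receptor for T cell help, fell by 3.22 (SE 0.44, edgeR adjusted p = 0.00314) and 3.87 (SE 0.47, adjusted p = 0.00078), from 2.74 ± 0.622 CPM in EV to 0.291 ± 0.0584 and 0.182 ± 0.0673. Its counts were 68 and 55 under EV, 7 and 6 under BCR-ABL1, and 5 and 3 under C-MYC, so the size of its fall is uncertain. Macrophages and dendritic cells express these genes as well, and their marker sums, given above, were lower in both oncogene groups than in EV, save that 1 BCR-ABL1 library (73.1 CPM) exceeded 1 EV library (66.3) for dendritic cells. Of these dendritic sums, Ccr7 alone held 61.7 and 45.4 CPM. The part of such cells in the fall of the costimulation genes was not tested, and fewer cells and less RNA per cell cannot be told apart.

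To find genes with a like pattern, the centred log2 CPM of H2-Aa, H2-Ab1, H2-Eb1 and Cd74 were averaged into 1 profile over the 6 libraries. The profile stood at 2.74 and 2.45 under EV, -1.21 and -1.41 under BCR-ABL1, and -1.69 and -0.88 under C-MYC, so that the oncogene groups overlapped. It averages Cd74, which was higher in BCR-ABL1 than in C-MYC, with H2-Aa and H2-Eb1, which were lower there. Among 10613 other genes whose mean over the libraries reached 50 counts, the 5 nearest by root mean square difference were Eomes (0.15), Itgax (0.15), Cxcr3 (0.20), Ms4a4b (0.21) and Tgfbi (0.22). Eomes is a transcription factor of T and NK cells, Itgax encodes the integrin chain CD11c, Cxcr3 is a chemokine receptor, and Tgfbi is a secreted matrix protein. Itgax had 364 and 367 counts under EV, 19 and 21 under BCR-ABL1, and 12 and 31 under C-MYC, and it is also 1 of the dendritic cell markers. Distances of the class II genes ran from 0.53 for H2-DMb1, 0.54 for H2-Ab1 and 0.61 for Ciita to 1.59 for H2-Oa and 1.99 for H2-DMb2. Of the other genes in the profile, H2-Aa stood at 0.84, H2-Eb1 at 0.89 and Cd74 at 1.31. The 5 nearest were picked for the smallest distances and the class II genes were not, so the 2 sets of distances cannot be compared.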

How the data were processed

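The authors aligned RNA reads to mouse GRCm38 (mm10) with STAR 2.5.0 and estimated expression with StringTie 1.3.0, per the labels and the study's methods. They deposited a count and an FPKM value per gene and library, and the program and strand setting behind the counts are not given in the sources used here. The 6 RNA-seq libraries were grouped by their labels, and the 15 ChIP-seq samples were not analysed here.

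Of 24421 genes, 12786 passed edgeR's filter on low counts. All 6 libraries were fitted in 1 model (R 4.3.3, edgeR 4.0.16, TMM scaling, quasi-likelihood test, Benjamini-Hochberg threshold 0.05), and the common biological coefficient of variation was 0.151. Standard errors come from the quasi-likelihood F, and log2 CPM used a prior count of 2. In data simulated for C-MYC against EV on 12568 genes, the test recovered 60% of 2-fold and 94% of 4-fold changes and called 11 unchanged genes. Only 100 genes of each fold were changed there, while 2383 genes were called higher and 3132 lower in the real comparison. These rates may therefore not carry over to the data. Replicates differed by more than counting error (chi-square per degree of freedom 10.1 to 42.9).

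Alternatives were DESeq2 1.42.0 (its size factors, and its test), no filter, a replicate block, the 4 libraries compared alone, each library left out, H2-DMb1 and H2-DMb2 summed, counts per kilobase for levels and, added after seeing the data, for ratios, and limma 3.58.1 on log2(FPKM + 1) or log2(FPKM + 0.1), a scale that understates changes of low genes. The genes and lists were chosen with earlier results of these data known. Named by rule are all 10 class II genes, listed genes called in at least 1 of the 3 comparisons, and the 5 genes nearest in pattern with a mean of at least 50 counts. Rfxap, H2-Eb2, H2-Ea-ps, Brd2, Notch4, Dexi, Trp53bp1, CR974462.3, Mir5107 and single cell type markers were named after their values or overlaps were seen. Motifs, tables and plots were made with Python 3.11.15, numpy 2.4.6, pandas 2.3.3, biopython 1.88 and matplotlib 3.10.9.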

Additional observations from a re-analysis of the deposited data

How the results depend on the processing

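Of 426 values of the 10 class II genes under alternatives, 400 kept their direction and their side of the threshold, 20 lost the call, 1 gained it and 5 changed sign. All 142 against EV in C-MYC were kept, 132 of 142 in BCR-ABL1, and 126 of 142 between the oncogenes. The gain was H2-DMb1 between the oncogenes when summed with H2-DMb2 (2.01). The changes of sign were H2-DMb2 in BCR-ABL1 when summed (-1.04), H2-Oa in BCR-ABL1 without EV replicate 1 (0.31, against -0.71 without EV replicate 2), and, between the oncogenes, H2-Ab1 without BCR-ABL1 replicate 1 (-0.042, against 0.43 without replicate 2) and H2-DMb1 without BCR-ABL1 replicate 1 (-0.10) or C-MYC replicate 1 (-0.30, against 0.67 without C-MYC replicate 2). None of these 4 genes passed the test in the comparison named. The class II genes called lower in BCR-ABL1 than in EV numbered 6 to 8 with a library left out. Those called lower in BCR-ABL1 than in C-MYC numbered 0 to 2, and limma gave 0 on log2(FPKM + 1), 1 on log2(FPKM + 0.1) and 0 without a filter. Over all genes, those higher in BCR-ABL1 than in EV numbered 650, against 1221 with the replicate block, 402 in the 4 libraries alone, 340 and 364 with limma at pseudocounts of 1 and 0.1, 277 with limma without a filter, and 118 to 1000 with a library left out. With a library left out, genes lower in BCR-ABL1 than in EV numbered 547 to 1799, higher in C-MYC than in EV 1431 to 2701, lower 1898 to 3376, and higher and lower in BCR-ABL1 than in C-MYC 442 to 2284 and 176 to 2235. Limma without a filter gave 1472 higher in C-MYC than in EV, and 847 higher and 565 lower in BCR-ABL1 than in C-MYC. The latter were 950 with limma and a filter, and 2271 in the 4 libraries alone. The labels share replicate numbers but do not say what they mark. Deviations of same-numbered libraries correlated at 0.204 to 0.273 over genes, and the block kept the call and direction of 30 of 30 class II values. By counts per kilobase, 6, 6 and 4 of 10 genes kept their FPKM rank in EV, BCR-ABL1 and C-MYC, and H2-Ob to H2-DMb1 averaged 2.22, 9.16 and 4.70 in place of 7.24, 24.6 and 15.7. The cause was not tested for any of these. Low counts limit Ciita (5 to 29 in the oncogene libraries) and H2-DMb2 in C-MYC (10 and 14). They also limit Cd40, a costimulation gene (3 to 7 in the oncogene libraries).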

Other observations

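Of 9 MHC class I genes, 4 fell in BCR-ABL1 and 5 in C-MYC, and 1 rose in C-MYC. Over all tested genes, 12% fell in BCR-ABL1, and 24.5% fell and 18.6% rose in C-MYC. H2-K1, a class I heavy chain, fell by 1.01 (SE 0.16, edgeR adjusted p = 0.0058) in BCR-ABL1 and by 1.51 (SE 0.16, adjusted p = 0.000524) in C-MYC on the log2 scale, less than the classical class II chains did by value. Nlrc5, the transactivator of class I genes, fell by 1.31 (SE 0.17, edgeR adjusted p = 0.0028) and 1.70 (SE 0.18, adjusted p = 0.000477). The gene that rose was Pdia3, a chaperone of class I loading (0.30, edgeR adjusted p = 0.0468).

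Of 12 interferon-stimulated genes, 9 fell in BCR-ABL1 and all 12 in C-MYC, with median log2 fold changes of -1.59 and -3.51, and 8 were higher in BCR-ABL1 than in C-MYC. The matching shares over all tested genes were 12%, 24.5% and 11.9%. Irf7, an interferon regulator, fell by 1.85 (SE 0.29, edgeR adjusted p = 0.0057) and 4.03 (SE 0.35, adjusted p = 0.000306). The summed level of the 12 genes was 1519 and 676 CPM in the EV libraries, 385 to 427 in BCR-ABL1 and 170 to 198 in C-MYC, so the EV libraries differed most from each other.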
